A study of Rattus norvegicus with 8 samples.

Results

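The 8 genes described here mark brain regions that border the hypothalamus. Ppp1r1b, Adora2a, Rgs9, Pde10a and Syndig1l are enriched in the striatum, Zic1 marks the septum among other places, and Neurod2 and Neurod6 mark excitatory neurons of the cortex and hippocampus. Members were chosen by name, as non-control probes whose gene name on the array is one of the 8. This gave 10 probes and 28 spots, among 30367 probes for 26269 gene names. The samples were hypothalami of lactating Wistar rats on postpartum day 7, from 4 dams exposed to TCDD and 4 control dams, each measured on 1 Agilent Whole Rat Genome array in 1 colour. TCDD is a persistent dioxin that activates the aryl hydrocarbon receptor. Dose, route and timing of the exposure, and the age of the dams, were not given in these sources. The arrays of each group lay on 1 slide, so slide and exposure cannot be told apart.

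Medium spiny neurons, the main cell type of the striatum, receive dopamine and adenosine signals that raise or lower cAMP. The striatal members act in that pathway as a receptor (Adora2a), a regulator of G proteins (Rgs9), a cAMP- and cGMP-degrading enzyme (Pde10a) and a phosphatase inhibitor switched by cAMP (Ppp1r1b, also called DARPP-32). Striatum, septum and cortex arise from the telencephalon and the hypothalamus from the neighbouring diencephalon, so these transcripts are read as a sign of telencephalic tissue at the edge of a hypothalamic dissection. Several are not exclusive to the telencephalon: DARPP-32 is also made by tanycytes, the ependymal cells that line the third ventricle, and Zic1 occurs in parts of the diencephalon.

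An array reads each gene through a 60-base probe. Of the 10 probes 5 are shown: the second probes of Ppp1r1b and Pde10a, against which the main pattern below was checked, and the single probes of Syndig1l, Zic1 and Neurod6, which varied widely between dams. They are given 5′ to 3′, and capitals mark a stop codon that ends the probe in its first reading frame. Exon and UTR positions are not given, since no annotation of the array's rat build (rn4) was used here.
Ppp1r1b, chr10:87129206-87129265, plus strand: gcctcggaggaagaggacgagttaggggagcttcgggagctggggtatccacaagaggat
Pde10a, chr1:46393704-46393763, minus strand: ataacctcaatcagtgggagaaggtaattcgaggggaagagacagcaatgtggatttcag
Syndig1l, chr6:108720504-108720563, minus strand: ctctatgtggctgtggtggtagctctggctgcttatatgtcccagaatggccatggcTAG
Zic1, chr8:96317434-96317493, minus strand: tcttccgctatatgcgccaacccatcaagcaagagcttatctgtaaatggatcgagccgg
Neurod6, chr4:84476853-84476912, minus strand: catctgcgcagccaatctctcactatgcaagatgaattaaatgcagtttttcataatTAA

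The other probes lie at chr10:87131412-87131471 (plus strand) for Ppp1r1b, chr1:46392997-46393056 (minus) for Pde10a, chr20:13815854-13815913 (minus) for Adora2a, chr10:98598485-98598544 (minus) for Rgs9 and chr10:87097969-87098028 (minus) for Neurod2. Neurod2 and Ppp1r1b are neighbours on chromosome 10. Their nearest probes were 31.2 kb apart, and the current RefSeq table (assembly GRCr8) places 0 protein-coding genes between them.

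All 10 probes were well above background on all 8 arrays, so each of the 8 genes was measured in every TCDD and every control dam. Values below are log2 of the processed spot signal minus the 75th percentile of the same array. The lowest signal called well above background lay between -6.57 and -5.94 on this scale, depending on the array. The probe of Neurod6 came closest to that floor, at 1.66 to 3.45 above it, and the brighter Ppp1r1b probe stayed 7.02 to 8.15 above it. Signals of different probes are not compared as amounts of RNA. The summed signals of gene lists given below weight each gene by the brightness of its probe. The 75th percentile of the processed signal was 806 to 1077 on TCDD arrays and 756 to 1051 on control arrays. Between 61.7% and 66.6% of probes were well above background on TCDD arrays, and 64.9% to 66.7% on control arrays.

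Ppp1r1b, the phosphatase 1 inhibitor DARPP-32, had log2 signals of 1.08, 1.75, 1.37 and 1.26 on TCDD replicates 1 to 4, against 0.99, 0.93, 1.41 and 1.65 on control replicates 1 to 4, by its brighter probe. TCDD replicate 2 and control replicate 4 were the highest of their groups, and the groups overlapped. The log2 fold change, TCDD minus control, was 0.12 (SE 0.19, limma adjusted p = 0.891), and its 95% interval ran from 0.799-fold to 1.48-fold.

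The dimmer Ppp1r1b probe, whose sequence is printed above, gave -3.55, -2.84, -3.12 and -3.31 in TCDD dams and -3.34, -3.26, -3.15 and -2.73 in control dams. The same 2 dams were highest of their groups. Its log2 fold change was -0.08 (SE 0.18, limma adjusted p = 0.921 over all tested probes), so the probes differed in sign between groups while ordering the dams alike. Over the 8 arrays the probes correlated at r = 0.86 (exact permutation p = 0.00719, adjusted over the 2 genes with a second probe 0.00719; Spearman rho = 0.79, exact p = 0.0279, adjusted 0.0559), and at r = 0.91 without TCDD replicate 2 and control replicate 2. In bulk tissue, fewer cells of a type and less RNA per cell cannot be told apart.

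Adora2a, an adenosine receptor of striatal neurons that project indirectly to the output nuclei, had log2 signals of -4.19, -3.85, -3.89 and -3.97 in TCDD dams and -4.07, -4.003, -4.10 and -4.22 in control dams. Control replicate 4 and TCDD replicate 1 were the lowest. The log2 fold change was 0.12 (SE 0.085, limma adjusted p = 0.695; 95% interval 0.951-fold to 1.25-fold). Its probe is spotted 10 times on each array, and the SD between spots was 0.060 to 0.15, so the mean of an array carried a standard error of at most 0.046.

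Pde10a, the cyclic nucleotide phosphodiesterase of medium spiny neurons, had log2 signals of -0.22, -0.38, -0.29 and -0.23 in TCDD dams and -0.13, -0.19, -0.24 and -0.44 in control dams by its 10-spot probe. TCDD replicate 2 and control replicate 4, the dams with the most Ppp1r1b signal, had the least of their groups here. The log2 fold change was -0.03 (SE 0.077, limma adjusted p = 0.937; 95% interval 0.866-fold to 1.11-fold). The SD between its spots was 0.026 to 0.071, against a range of 0.31 over the 8 arrays.

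The dimmer Pde10a probe gave -3.12, -3.43, -3.17 and -2.98 in TCDD dams and -2.96, -3.16, -2.94 and -3.57 in control dams. The lowest dam of each group was again TCDD replicate 2 and control replicate 4. Its log2 fold change was -0.02 (SE 0.15, limma adjusted p = 0.983 over all tested probes). The probes correlated at r = 0.88 (exact permutation p = 0.00704, adjusted 0.00719; rho = 0.67, exact p = 0.0831, adjusted 0.0831). Without those same dams r was 0.32, so this relation rests on them.

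Rgs9, which speeds the shut-off of G protein signals and has a long splice form typical of the striatum, had log2 signals of 0.14, -0.26, -0.14 and 0.0018 in TCDD dams and 0.081, -0.14, -0.081 and 0.17 in control dams. The highest value was on control replicate 4 and the lowest on TCDD replicate 2. The log2 fold change was -0.07 (SE 0.10, limma adjusted p = 0.878; 95% interval 0.808-fold to 1.12-fold).

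Syndig1l, a transmembrane protein first described as enriched in caudate and putamen, had log2 signals of -3.67, -3.49, -3.39 and -3.57 in TCDD dams and -3.92, -3.45, -3.33 and -4.15 in control dams. The control dams held both the highest and the lowest value, so the TCDD values lay inside the control range. The log2 fold change was 0.18 (SE 0.18, limma adjusted p = 0.797; 95% interval 0.854-fold to 1.51-fold).

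Zic1, a zinc finger transcription factor, stands for the septum. Its log2 signals were -2.72, -2.62, -2.04 and -2.80 in TCDD dams and -3.07, -2.38, -2.72 and -3.34 in control dams. The groups overlapped, although the highest value was on TCDD replicate 3 and the lowest on control replicate 4. Of the 8 genes it had the largest difference between groups, at 0.33 on the log2 scale (limma adjusted p = 0.703, SE 0.24; 95% interval 0.865-fold to 1.83-fold).

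Neurod2 and Neurod6 are basic helix-loop-helix factors of differentiating and mature cortical neurons. Neurod2 had log2 signals of -3.80, -3.14, -3.97 and -3.59 in TCDD dams and -3.57, -3.60, -3.66 and -3.89 in control dams. All 4 control values lay inside the TCDD range, and the log2 fold change was 0.06 (SE 0.17, limma adjusted p = 0.950; 95% interval 0.795-fold to 1.36-fold).

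Neurod6 had log2 signals of -4.28, -3.81, -4.13 and -2.78 in TCDD dams and -3.63, -3.73, -3.84 and -4.06 in control dams. TCDD replicate 4 stood above all other arrays, and the highest and lowest arrays, both of TCDD dams, were 2.82-fold apart, the widest range of the 8 genes. The log2 fold change was 0.07 (SE 0.30, limma adjusted p = 0.970; 95% interval 0.648-fold to 1.69-fold), and it was -0.26 without TCDD replicate 4. Neurod2 of the same dam, at -3.59, lay near the middle of its own range.

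**Figure D1:**
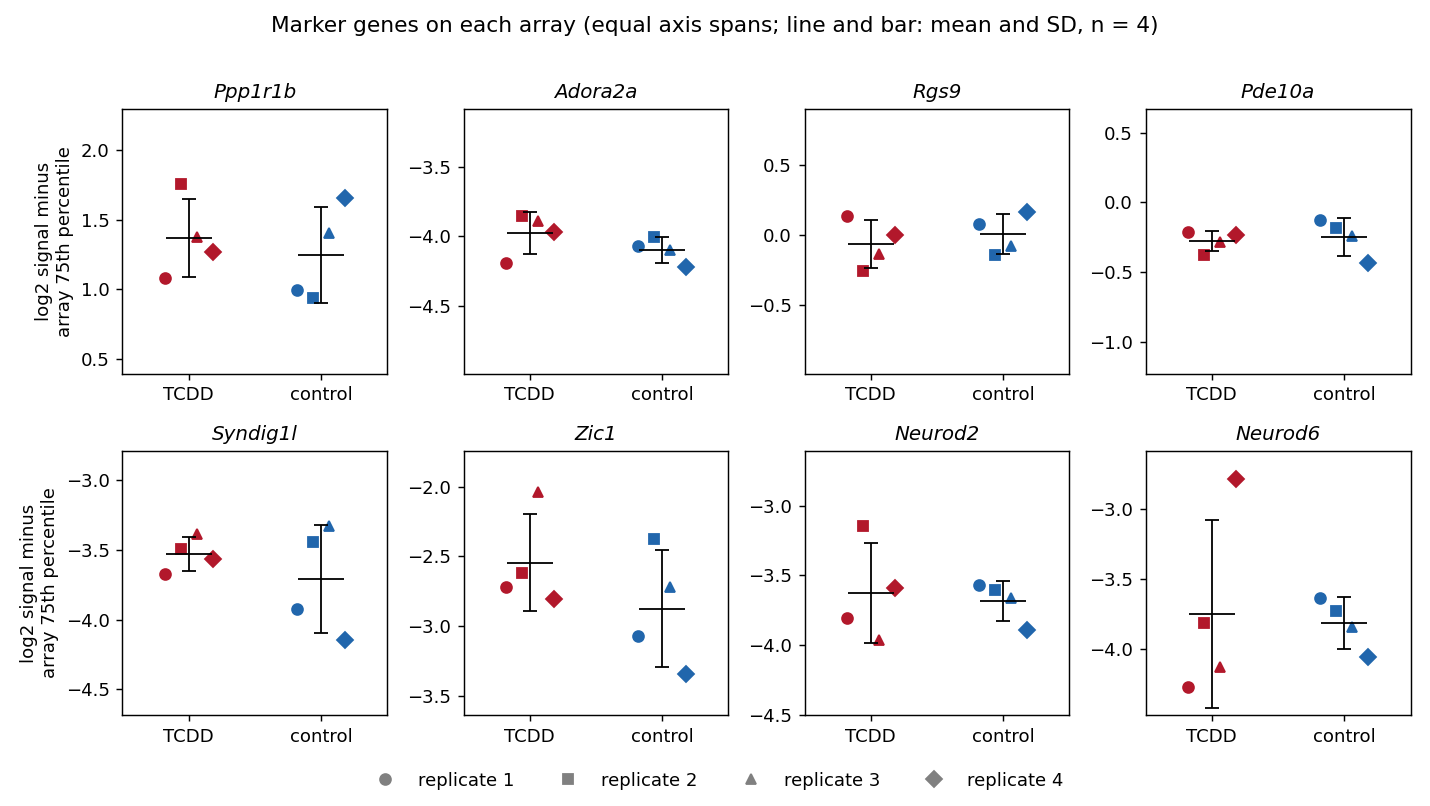
Log2 signal minus the array's 75th percentile of the 8 marker genes, with TCDD dams on the left and control dams on the right of each panel (marker shape, replicate number; line and bar, mean and SD, n = 4). The axes span the same log2 range, and the groups overlap in all 8 panels; Neurod6 of TCDD replicate 4 sits at -2.78.

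None of the 8 genes passed the test between TCDD and control dams, and 0 had groups that did not overlap. Of 16571 genes tested in the same limma fit, 0.0241% passed at an adjusted p under 0.05, all higher in TCDD dams, and in 7.05% the groups did not overlap (TCDD above in 5.33%, below in 1.72%). At an unadjusted p under 0.05 stood 0 of the 8 members, against 10.8% of all genes (7.95% higher and 2.82% lower in TCDD dams). The members' adjusted p-values ran from 0.695 to 0.970. Of the members 6 had a log2 fold change above 0 and 2 below, with a median of 0.094, against 0.0041 over all tested genes, of which 51.5% were above 0. The number above 0 ranged from 4 to 7 over the 20 alternative settings, with 4 when control replicate 4 was left out. A p that misses the threshold does not show equal levels: the intervals of Zic1 and Neurod6 reached 1.83-fold and 1.69-fold, while those of Pde10a and Rgs9 stayed within 0.808-fold to 1.12-fold.

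**Figure D2:**
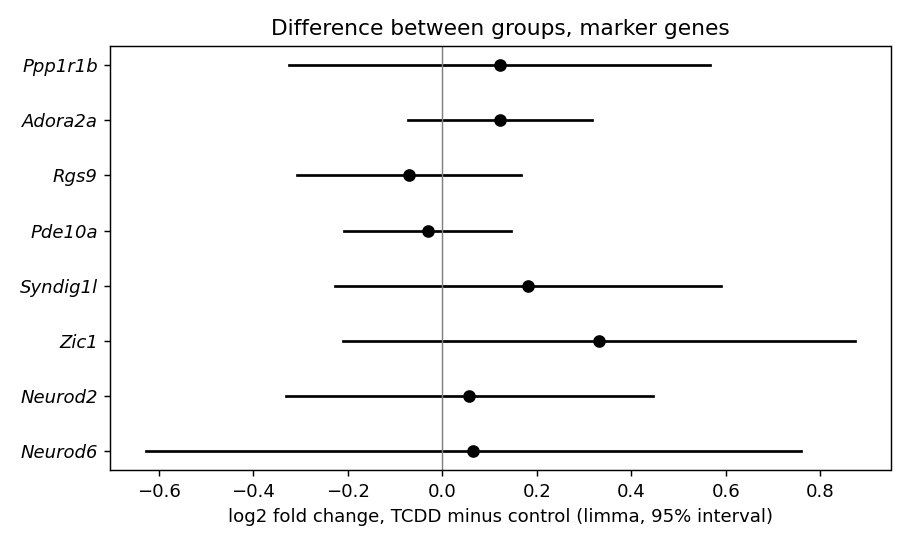
Log2 fold change, TCDD minus control, of each marker gene (point) with its 95% interval from limma (line). Every interval includes 0, from the narrow one of Pde10a to that of Neurod6, which spans -0.63 to 0.76.

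The genes differed more in how unevenly they were present between dams of one group. The within-group SD of the log2 signal, pooled over both groups, was 0.49 for Neurod6, 0.38 for Zic1, 0.31 for Ppp1r1b, 0.29 for Syndig1l and 0.27 for Neurod2. These lay at the 96.3rd, 93.6th, 89.8th, 87.9th and 86.5th percentile of all 16571 genes, whose median SD was 0.12. Rgs9 (0.16, percentile 65.3), Adora2a (0.12, percentile 51.8) and Pde10a (0.11, percentile 43.4) lay closer to the median. The values of Adora2a and Pde10a are means over 10 spots and carry less measurement error than those of the single-spot probes. The dimmer Pde10a probe, with 1 spot, had an SD of 0.24. The SD depends on how background is handled: with normexp background correction it was 0.11 for Syndig1l, 0.18 for Neurod2 and 0.29 for Neurod6. Neurod6 stood at 0.21 without TCDD replicate 4.

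**Figure D3:**
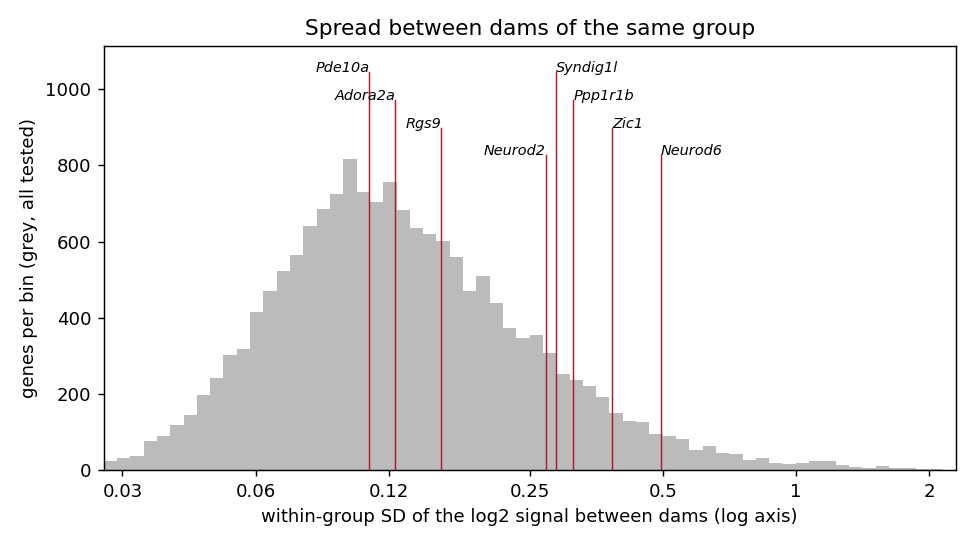
Distribution over all 16571 tested genes of the within-group SD of the log2 signal between dams (grey bars, number of genes per bin, log axis), with the 8 marker genes as red lines. Pde10a, Adora2a and Rgs9 sit in the bulk and the other 5 genes in the upper flank, from Neurod2 at 0.27 to Neurod6 at 0.49.

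The 8 genes did not rise and fall as a block over the dams. Of the 28 pairs of genes, 14 correlated positively and 14 negatively over the 8 arrays, with a median r of 0.039. Among the 10 pairs of striatal genes, 4 were positive and 6 negative. A single pair passed after adjustment over the 28 pairs: Ppp1r1b and Pde10a ran opposite to each other, at r = -0.92 (exact permutation p = 0.00146, adjusted 0.0410; Spearman rho = -0.93, exact p = 0.00223, adjusted 0.0625). Without TCDD replicate 2 and control replicate 2, the arrays farthest from the median of Ppp1r1b, r was -0.93, and with each group centred on its own mean it was -0.91. Each group has 4 arrays, too few for a test within a group, and r was -0.98 within TCDD and -0.91 within control arrays.

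The opposite course of Ppp1r1b and Pde10a was also seen with the other probes, less firmly. Across the 4 combinations of their probes r ran from -0.92 to -0.67, with exact permutation p-values adjusted over the 4 from 0.00585 to 0.0695. For the dimmer Ppp1r1b probe against the 10-spot Pde10a probe, r was -0.88 (exact p = 0.00610, adjusted 0.0122; rho = -0.88, exact p = 0.00724, adjusted 0.0145). Without TCDD replicate 2 and control replicate 4 it was -0.45, and for the dimmer probes of both genes it was 0.043 without the same dams. In these combinations the relation rests on those dams. For the brighter Ppp1r1b probe the arrays left out were TCDD replicate 2 and control replicate 2, and against the dimmer Pde10a probe r was then -0.70. Its dependence on control replicate 4 was not examined. Over 5 other scalings r of the brighter probes ran from -0.94 to -0.89 and the adjusted p from 0.0271 to 0.0688. The arrays share their scaling, and 8 arrays limit what a correlation can show.

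**Figure D4:**
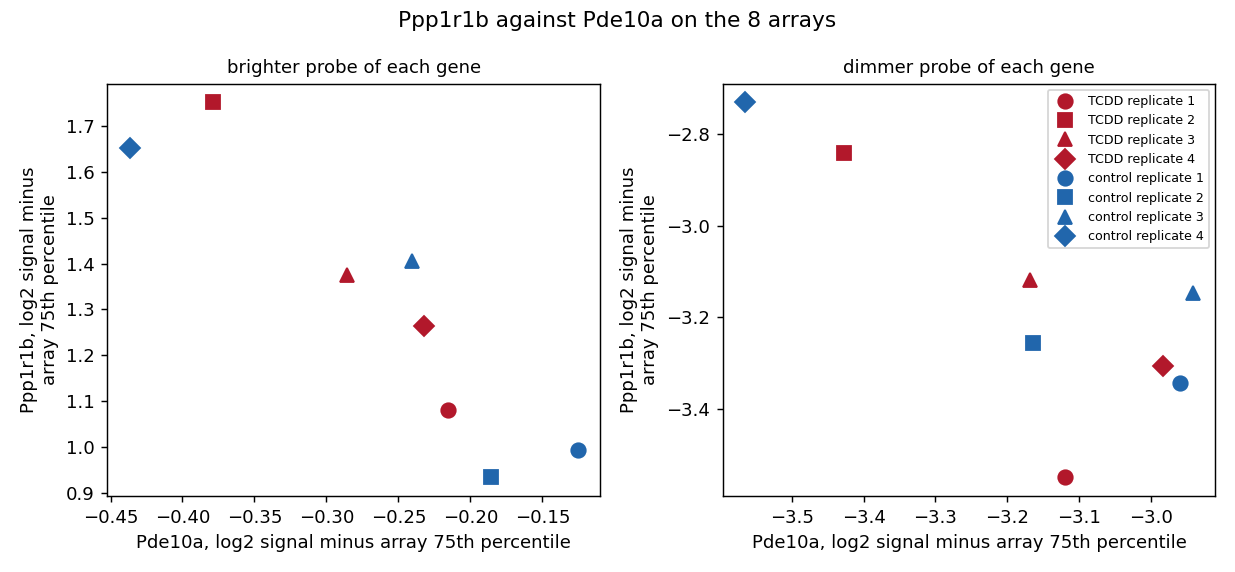
Ppp1r1b against Pde10a on the 8 arrays, both as log2 signal minus the array's 75th percentile, for the brighter probe of each gene (left) and the dimmer probe (right); red, TCDD dams, blue, control dams, shapes, replicate numbers. On the left the points descend at r = -0.92; on the right TCDD replicate 2 and control replicate 4 lie apart at the upper left.

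Other pairs did not pass the adjustment. Adora2a and Rgs9, both of striatal neurons, stood at r = -0.87 (exact p = 0.00709, adjusted 0.0741; rho = -0.83, exact p = 0.0154, adjusted 0.215), and at -0.71 without TCDD replicate 2 and control replicate 4. With normexp background correction their r turned to 0.35. Syndig1l and Zic1, of striatum and septum, stood at r = 0.84 (exact p = 0.00794, adjusted 0.0741; rho = 0.71, exact p = 0.0576, adjusted 0.269), and at 0.46 without control replicates 1 and 4. The chromosomal neighbours Neurod2 and Ppp1r1b stood at r = 0.21 (exact p = 0.642, adjusted 0.979; rho = -0.07, exact p = 0.882, adjusted 0.969), and at -0.54 without TCDD replicate 2 and control replicate 2. The related factors Neurod2 and Neurod6 stood at 0.38 (exact p = 0.297, adjusted 0.830; rho = 0.76, exact p = 0.0368, adjusted 0.257), and at 0.69 without TCDD replicates 2 and 3. Control replicate 4 held the lowest value of 4 of the 8 genes, Adora2a, Pde10a, Syndig1l and Zic1, and the highest of Rgs9. TCDD replicate 2 held the highest value of Ppp1r1b, Adora2a and Neurod2 and the lowest of Rgs9. In 75th percentile and share of probes above background, control replicate 4 (1051 and 65.7%) and TCDD replicate 2 (1005 and 66.6%) were near the other arrays.

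**Figure D5:**
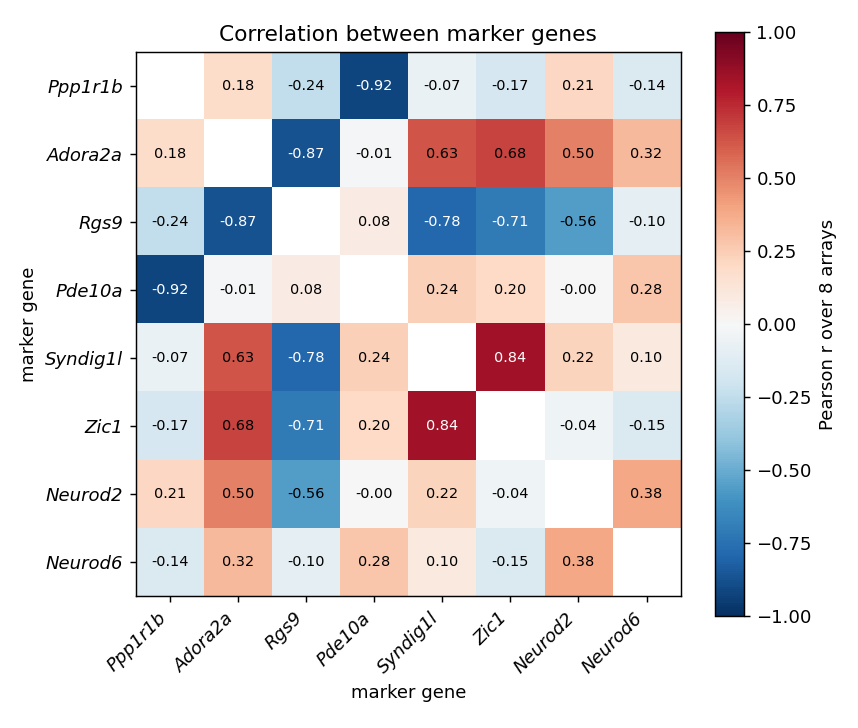
Pearson r over the 8 arrays for each of the 28 pairs of marker genes, coloured from blue (-1) to red (1). The strongest cells are Ppp1r1b with Pde10a at -0.92, Adora2a with Rgs9 at -0.87 and Syndig1l with Zic1 at 0.84, and the striatal genes do not form a common block.

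The genes whose course over the 8 arrays was most like each member, by Pearson r among 11361 genes with a symbol, were as follows, as a description without a test. Those closest to Ppp1r1b were Galnt4 and Il17b (both r = 0.98) and Dnajb13 (0.97), and among those closest to Pde10a were Cend1 and Shd (both 0.97). Adora2a was nearest to Cuedc2, Asb18 and Mrpl45 (0.95 to 0.96), and Rgs9 to Gnaz (0.97), Fuz (0.96) and Clk3 (0.95). Syndig1l ran closest to Ttc36 and Gabrd (both 0.96) and to the neuropeptide gene Cck (0.95), and Zic1 to Kcnab1, Mmp24 and Kcnk1 (0.93 to 0.94). Neurod2 was nearest to Leprot (0.95), Pgpep1 and Nhlh1 (both 0.94), and Neurod6 to Jmjd5 and Csnk1e (both 0.96) and Ofd1 (0.95). With 8 arrays and 11361 candidates, high values arise for any gene.

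Ppp1r1b was set beside a list of 12 tanycyte genes, chosen after its values were seen. Of the 10 tested, 5 correlated with it above 0.7 (Fndc3c1 0.85, Frzb 0.81, Nes 0.80, Vim 0.78 and Scn7a 0.77), a level reached by 7.13% of all tested genes, and the list's median r was 0.61 against 0.022 over all. The astrocyte list was alike, with 4 of 9 genes above 0.7 (Gja1 0.84, S100b 0.79, Aldh1l1 0.78 and Aqp4 0.71) and a median of 0.62. Of 25 hypothalamus genes 3 were above 0.7, among them the arcuate peptide genes Agrp (0.75) and Pomc (0.73). The striatal list had 0 of 31 above 0.7 and a median of -0.24 with Ppp1r1b. The summed linear signal of the tanycyte list, in units of the array's 75th percentile, was 8.43 to 10.8 in TCDD and 8.38 to 10.9 in control dams. It was highest on TCDD replicate 2 and control replicate 4, the dams with the most Ppp1r1b. The summed signal of the pituitary list was also highest there and on TCDD replicate 4, at 43.6 on TCDD replicate 2, 29.2 on TCDD replicate 4 and 35.2 on control replicate 4, against 1.07 to 3.31 on the other arrays. The part of these cell types in the Ppp1r1b values was not tested.

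Most other listed genes of the striatum were detected, and none passed the test between groups. Of 39 listed genes of striatal projection neurons, 31 were tested, and 0 passed limma in either direction (smallest adjusted p = 0.242), with 14 above 0, 17 below and a median log2 fold change of -0.0070. The dopamine D2 receptor Drd2 and the peptide genes Penk and Tac1, which the hypothalamus also expresses, were well above background on all 8 arrays, with log2 fold changes of -0.13, 0.021 and -0.0020. Drd1a, the D1 receptor that defines the direct pathway, did not reach that level on a single array, and neither did Drd3 and Gpr6. The highest values were 0.23 for Gnal, the olfactory and striatal G protein (SE 0.067, adjusted p = 0.242), and 0.22 for Meis2. The lowest were -0.37 for Arpp21 (SE 0.30) and -0.17 for Ebf1. Ebf1 was well above background on 3 TCDD and 4 control arrays, so it was tested through the control group, where it was higher. The group-centred median course of the 5 striatal members stood at -0.14 on TCDD replicate 1 and -0.12 on control replicate 4. On the other arrays it lay between 0.0064 and 0.061. A high r with this course, here and below, therefore rests largely on low values in those dams. With it, the tested list genes had a median r of 0.30, against 0.014 for all genes. Lists of other tissues and cell types ran closer to it, with medians of 0.58 for thalamus, 0.46 for oligodendrocytes and 0.38 for broad neuron genes. Of the striatal list 16 genes were above 0 and 15 below, and highest were Pcp4 (0.80), Arpp21 (0.76), Meis2 (0.74), Ebf1 (0.73) and Adcy5 (0.72).

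Of 7 further septum genes 4 were tested and 0 passed. Log2 fold changes were 0.28 for Zic2 and 0.12 for Zic4, relatives of Zic1, -0.09 for Nts and 0.0059 for Trpc4. Crhr2 was well above background on 0 arrays. With the striatal course, Zic4 stood at r = 0.32, Zic2 at 0.30, Nts at -0.10 and Trpc4 at -0.52.

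Several defining genes of cortical excitatory neurons were not well above background, unlike Neurod2 and Neurod6. Tbr1, a transcription factor of cortical projection neurons, and Slc17a7, their main vesicular glutamate transporter, were well above background on 0 of 8 arrays. The same held for Ntng2, Prox1 and Ovol2, and whether these probes report well in other tissue was not tested. Of 30 listed genes 21 were tested and 0 passed (smallest adjusted p = 0.153, for Emx1 at 0.23, SE 0.051). The median log2 fold change was 0.033, and it fell as low as -0.0089 under other scalings. The lowest values were -0.19 for the kinase Camk2a and -0.11 for Nrgn, and the next highest was 0.20 for Slc30a3. With the striatal course the list had a median r of 0.023 and ranged from -0.86 to 0.70, with 11 genes above 0 and 10 below. The closest were Cck and Slc30a3 (both r = 0.70), Pou3f1 (0.47), Myl4 (0.40) and Bhlhe22 (0.40).

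Of the 15 genes of the telencephalon patterning and interneuron list 9 were tested and 0 passed (median 0.018). They ranged from -0.09 for Lhx8, with an SE of 0.65, and -0.03 for Dlx5 to 0.077 for Npas1 and 0.29 for Pvalb. With the striatal course, Npas1 stood at r = 0.69, Lhx6 at 0.38 and Lhx8 at 0.16.

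The hypothalamic origin was checked with 30 genes, of which 25 were tested. Nkx2-1, Sim1, Nr5a1 and Hmx2, transcription factors of hypothalamic nuclei, were well above background on all 8 arrays, Rax on 2 TCDD and 3 control arrays, and Otp on none. The summed signal was 234 to 311 in TCDD and 256 to 366 in control dams, with 0 genes past the test and values from -0.55 for Avp and -0.28 for Agrp to 0.36 for Six6 and 0.43 for Sst. In the lists of thalamus (11 tested, median 0.25, and 0.067 to 0.24 under other scalings, from Slc17a6 at -0.02 and Lef1 at 0.058 to Plekhg1 at 0.44 and Tnnt1 at 0.53), choroid plexus (7 tested, median 0.039, from Prlr at -0.03 to Kcne2 at 0.28) and pituitary (6 tested, median 0.16, with Tshb highest at 2.46, SE 1.93), 0 genes passed. Neither did any of the broad neuron (10 tested, median 0.0088), astrocyte (9 tested, median 0.014) and oligodendrocyte (12 tested, median -0.09) lists. Six6 and Tshb were well above background on 4 TCDD and 3 control arrays, so they were tested only through the TCDD group, where they were higher. On control replicate 2 Tshb stood at -7.37, below the lowest signal called well above background there (-6.57). The 2.46 of Tshb therefore rests in part on a signal at background. The thalamus list had a summed signal of 11.4 to 12.9 in TCDD and 10.04 to 12.6 in control dams and was lowest on control replicate 4, the dam lowest for Adora2a, Pde10a, Syndig1l and Zic1. The broad neuron list was also lowest there and on TCDD replicate 2, at 78.9 and 79.1, against 85.9 to 88.7 on the others. Slc17a6 made up most of the thalamus sum, with a mean log2 signal of 3.08 in TCDD and 3.10 in control dams. The next brightest gene of that list, Tcf7l2, stood at 0.33 and 0.084. The part of these lists in the members' values was not tested.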

How the data were processed

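Per the file headers, the authors' deposited scanner intensities came from Feature Extraction 10.7.1.1 by Agilent, whose processed signal has the background subtracted. The authors' deposited value table, also linear intensities, has a median of 65.1 in all 8 columns; how it was normalized is unknown here.

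Values were log2(processed signal) minus the array's 75th percentile over 42877 non-control spots. Spots marked as outliers were left out (up to 2 of 10 spots of Pde10a on an array), and spots of a probe were averaged. A probe was tested if well above background, on over 50% of its spots, on all 4 arrays of a group (19099 probes, 16571 genes, each gene by its brightest probe). Groups were compared with limma 3.58.1 in R 4.3.3 (lmFit, eBayes, 2-sided, group as the only term), Benjamini-Hochberg adjusted over all genes. Correlations used exact 2-sided permutation of the arrays (Python 3.11.15). Whether replicates were separate extractions is not stated beyond 4 dams a group, so p-values measure the spread between these samples; the number of arrays limits the precision. All 8 members' accessions matched RefSeq symbols.

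The text names all members, the 3 genes nearest to each, and of each list the genes with the highest and lowest fold changes (for the lists of other tissues and cell types, some of these) and the 5 nearest to the striatal course. Drd1a, Drd2, Drd3, Gpr6, Penk, Tac1, Pomc, the named astrocyte genes, Tbr1, Slc17a7 and the other undetected or hypothalamic factors were chosen after their values were seen. Some genes that the rule names are not reported here. Members and lists were chosen with earlier results of these data known. Tested on simulated data for TCDD against control (16571 genes, 200 altered), recovery was 53.7% at a log2 change of 0.5, 91.0% at 1 and 98.5% at 2, and 12 calls were false. The altered genes were drawn at random from all tested genes, whose median SD was 0.12. These figures do not give the recovery for members with SDs of 0.27 to 0.49, which was not simulated.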

Additional observations from a re-analysis of the deposited data

Results flagged for a closer look

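None of the 8 marker genes had an array apart from the other 3 of its group by the gap measure used here, the distance to the nearest array over the group's range, held against Dixon's 95% critical value for 4 arrays. Over members and list genes 108 groups were examined, where chance flags about 1 in 20, and 7 exceeded it, all among the list genes. Control replicate 4 was far below the other controls for Slc30a3 (0.936) and Meis2 (0.833), control replicate 2 far above them for Ebf1 (0.885) and control replicate 3 for Emx1 (0.835). TCDD replicate 2 was far below the other TCDD dams for Zic4 (0.939) and Olig2 (0.864), and TCDD replicate 4 for Nrgn (0.890).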

How the results depend on the processing

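Over 20 alternative settings the 8 members gave 160 log2 fold changes, of which 0 passed at an adjusted p under 0.05 (smallest 0.360), and 9 had the opposite sign. Neurod2 turned with normexp (-0.0097) and array weights (-0.060). Leaving out 1 array at a time gave log2 fold changes of -0.0062 to 0.26 for Ppp1r1b, -0.094 to 0.0095 for Pde10a, -0.10 to 0.17 for Neurod2 and -0.26 to 0.24 for Neurod6, with opposite signs without TCDD replicate 2 (Ppp1r1b -0.0062, Pde10a 0.0024, Neurod2 -0.10), TCDD replicate 4 (Neurod6 -0.26), control replicate 1 (Pde10a 0.0095) and control replicate 4 (Neurod2 -0.013, Neurod6 -0.016). Within-group SDs moved with normexp to 0.082 for Adora2a, 0.11 for Syndig1l, 0.18 for Neurod2 and 0.29 for Neurod6, and without single arrays ranged from 0.080 to 0.14 for Adora2a, 0.067 to 0.12 for Pde10a, 0.16 to 0.30 for Neurod2 and 0.21 to 0.54 for Neurod6. The correlation of Ppp1r1b and Pde10a stayed negative but missed the threshold with normexp (-0.90), quantile normalization (-0.91), the percentile over detected probes (-0.89) and the authors' value table (-0.91); that of Adora2a and Rgs9 was 0.35 with normexp. Genes past the threshold numbered 4, against 20 with normexp, 27 with median scaling, 0 of 26269 without the filter (limma; 1537 higher and 495 lower at an unadjusted p under 0.05), 34 with trend and robust fitting, 95 with array weights and 0 to 7 without single arrays. The causes were not tested.

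Same-numbered arrays did not deviate together (correlations of 0.227, -0.0022, -0.046 and 0.102), so the numbers were not taken to pair the dams. With a replicate block limma called 0 genes (1629 higher and 508 lower at an unadjusted p under 0.05), and the members' smallest adjusted p was 0.494. The fit without both replicate 1 arrays (2 genes past the threshold, 1 higher and 1 lower), the tanycyte list, the second probes and the correlations under other scalings were chosen after seeing the data. Signals close to background, as for Neurod6 and Adora2a, limit what could be seen.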
